A study of Homo sapiens with 12 samples.

Results

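Removing serum from HEK293 cells for 2 h was compared with undisturbed growth in the monosome fraction, the part of a sucrose gradient that holds mRNAs carrying a single ribosome. The comparison uses 4 of the 12 libraries of the study: both serum starvation monosome libraries and both log phase monosome libraries, with 1 library of each group marked A and 1 marked B. HEK293 is an established human embryonic kidney line. Log phase cells grew in DMEM with 10% FBS and penicillin-streptomycin to about 60% confluence. Serum-starved cells were moved to medium without FBS. The study also holds cells kept for 1 h in EBSS with vitamins and 10% FBS, which lacks amino acids, and a polysome fraction of every condition. Lysates contained cycloheximide, an inhibitor of elongation, and ribosome footprints of 17 to 34 nt were sequenced. Nothing in the labels says that libraries of a group came from separate cultures, so the p-values measure the spread between these libraries, which may be technical.

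The measured unit is the gene: the footprints on its called coding ORFs (types CDS, Trunc and Variant), with each codon counted once. The table held such ORFs for 6375 genes, and 4765 of them passed the filter on low counts and were tested. Levels are given in CPM, the footprints of a gene per 1000000 scaled coding footprints of its library. They are therefore relative to the other genes of that library. With no mRNA libraries, a change of the mRNA and a change of its translation cannot be told apart.

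Serum supplies the growth factors and lipids that keep PI3K, AKT and mTORC1 signalling active. mTORC1 favours translation of mRNAs that start with a 5′ terminal oligopyrimidine (5′TOP) tract, a C at the cap followed by further C and U, and these mRNAs encode ribosomal proteins and many translation factors. When they are repressed, they are known to leave polysomes for lighter fractions. An mRNA sits in the monosome fraction because it is short, because it initiates rarely, or because it has just begun or is about to end translation. Serum also drives transcription through SRF, and sterol supply restrains SREBP, which drives cholesterol synthesis.

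The start sites below show, for 7 of the genes discussed, whether the annotated start opens with a 5′TOP tract. Each is the first 20 bases of the transcript start in RefSeq on GRCh38.p14, written 5′ to 3′ in DNA letters, with capitals for an unbroken C or T run of at least 5 bases that opens with C.
RPL41: CTCTCggccttagcgccatt
RPS6: CTCTTTTCCgtggcgcctcg
EEF2: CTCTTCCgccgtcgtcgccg
EIF3F: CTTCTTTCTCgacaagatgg
TOMM7: CCTTTCCCTTTCggattccc
RPS28: actcctctccgccagaccgc
NXF1: acttcggtcctgagcgcttg
The positions are chr12:56116633-56116652 for RPL41 and chr11:7987337-7987356 for EIF3F on the plus strand, and chr9:19380217-19380236 for RPS6, chr19:3985444-3985463 for EEF2 and chr7:22822830-22822849 for TOMM7 on the minus strand. RPS28 lies at chr19:8321496-8321515 on the plus strand and NXF1 at chr11:62805421-62805440 on the minus strand. RPL41, a ribosomal protein, and TOMM7, a subunit of the mitochondrial outer membrane translocase, open with such a run, while RPS28, another ribosomal protein, does not at its annotated start. Of the other genes named here, EEF1A1, TPT1, RPS21, RPL14, DDX5 and CDK2AP1 also open with a run of at least 5 bases.

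The 4 libraries were shallow and unequal. Coding footprints numbered 289228 and 346200 in the log phase libraries A and B and 119947 and 303642 in the serum libraries A and B, and the median tested gene had 17, 23, 6 and 22 footprints. A single footprint was worth 3.61, 2.74, 8.90 and 2.98 CPM. Log phase A held 47.9% of its footprints in 1 ORF of 9 nt of the internal type (iORF), which is not counted as coding. The serum A library stood apart: on the first principal component of the 6 monosome libraries (38.7% of the variance) it lay at -72.4 and the other 5 at -7.5 to 35.3. Of 13 markers known for HEK293, 6 had a called coding ORF. They had 644 to 2550 summed footprints in 3 of the libraries and 340 in serum A, led by the neurofilaments NEFM and NEFL. The 4 lists of 6 markers of blood, fibroblast, liver and gut, and muscle had 0 to 3 footprints each. Each of these lists had at most 1 gene with a called coding ORF, so the low counts do not measure absence.

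Few genes differed by more than the spread between libraries. With the letter as a replicate block in a model over all 12 libraries, 1 of 4765 genes (0.021%) passed an adjusted p of 0.05 in edgeR's quasi-likelihood test with Benjamini-Hochberg adjustment. At an unadjusted p under 0.05 there were 273 genes (5.73%), close to the 5% that this level alone gives, of which 113 were higher (2.37%) and 160 lower (3.36%) in serum starvation. The gene that passed was CCDC120, which encodes a coiled-coil protein of centrioles, at chrX:49062112-49068112. It had 1 and 6 footprints in log phase A and B and 0 and 139 in serum A and B. Only serum B was high, and the A pair went the other way. The fitted log2 difference was 4.20 (SE 0.758, adjusted p = 0.0251), and without serum B the gene has no footprint left in serum starvation and no size.

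The model above assumes 1 shift between the letters for monosomes and polysomes. Giving each fraction its own letter term called 43 genes, 13 higher (0.273%) and 30 lower (0.63%). Of these, 38 moved in the direction of the call in both letter pairs, 36 had groups that did not overlap, and 5 moved in opposite directions in the A and B pairs. These 5, CCDC120, ULK2, GUCY1A2, HERC6 and ENSG00000120137, and several of the largest sizes rested on 1 library. GUCY1A2, a guanylate cyclase subunit, had 2 and 8 footprints in log phase and 0 and 104 in serum starvation, HERC6, a ubiquitin ligase, had 1 and 3 against 0 and 34, and ENSG00000120137 had 14 and 33 against 5 and 226. COMMD2, a COMMD-domain protein of endosome traffic, had 3211 and 65 footprints in log phase and 14 and 28 in serum starvation. ZNF622, a factor in ribosome maturation, had 962 and 20 against 2 and 18, and ULK2, an autophagy kinase, had 613 and 9 against 0 and 12. In the last 3 genes log phase A alone was high among the 4 libraries compared. Library A of the amino acid-starved monosomes was high too. It held 2134 footprints for COMMD2, 582 for ZNF622 and 362 for ULK2, against 56, 15 and 7 in library B of that group.

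**Figure D1:**
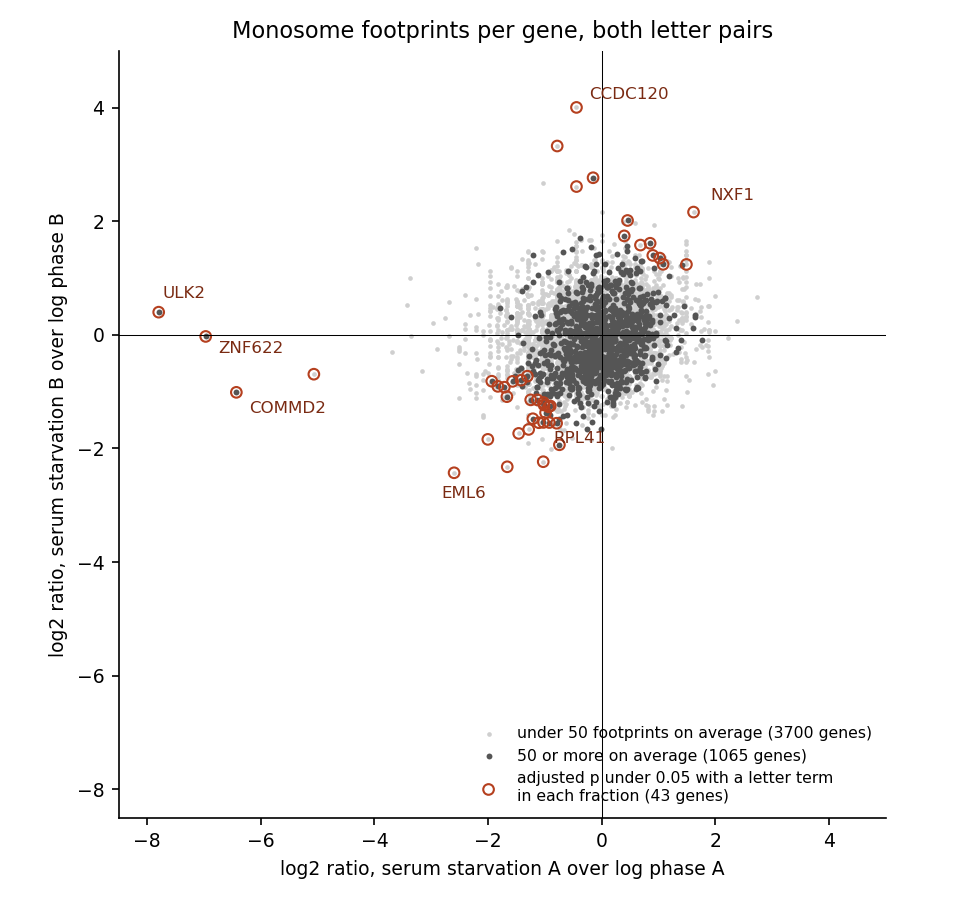
Each point is 1 of the 4765 tested genes, with the log2 ratio of serum starvation A over log phase A on the x axis and of B over B on the y axis, each computed after adding 10 CPM. Dark points average at least 50 footprints over the 4 libraries, and red rings mark the 43 genes called with a letter term in each fraction: CCDC120, COMMD2, ZNF622 and ULK2 lie far out on 1 axis only, while NXF1 and EML6 lie off zero on both.

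The letter pairs agreed only loosely. Across all tested genes the A ratio and the B ratio had a Spearman rho of 0.115, and 0.27 across the 1065 genes that average at least 50 footprints. Genes are not independent replicates, and this is a description of these 4 libraries. Serum starvation was higher in both pairs for 1088 genes (22.8%) and lower in both for 1380 (29%). The groups did not overlap for 639 genes in the higher direction (13.4%) and for 842 in the lower direction (17.7%).

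The genes named next had non-overlapping groups, at least 50 footprints on average in the higher group and the smallest unadjusted p. All of them missed the threshold with the replicate block, at adjusted p of 0.128 for NXF1 and COMMD2, 0.492 to 0.537 for ZNF622 and a gene described below, and 0.752 for the others, so they are given as values. NXF1, the main export receptor for mRNA and the gene with the smallest p among these higher ones, had 39.7 and 54.9 CPM in log phase and 142 and 280.2 in serum starvation, a log2 difference of 2.12 (SE 0.475, unadjusted p = 0.000106). In CPM both serum libraries lay above both log phase libraries, as the choice requires. The footprints were 11 and 20 in log phase against 16 and 94 in serum starvation, so serum A rests on few footprints. The called ORF of 687 nt, chr11:62800322-62802245, is a shortened form of the annotated one. The log2 difference was 1.93 without serum A and 2.45 without serum B, and the alternative with a letter term in each fraction called it at an adjusted p of 0.00023.

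LUC7L3, a splicing factor of the U1 snRNP, had 289 and 431 CPM in log phase and 596 and 1115 in serum starvation, a log2 difference of 1.20 (SE 0.392). DDX5, an RNA helicase, had 1214 and 1169 against 2198 and 3594, a log2 difference of 1.17 (SE 0.450). DHX15, a helicase that takes spliceosomes apart, had 228 and 279.9 against 303 and 959.7, so that serum A lay barely above log phase. CIRBP, a cold-inducible RNA-binding protein, had 134 and 115 against 294 and 286, with close values within each group. All 4 were called when each fraction had its own letter term, beside 13 higher calls (0.273%) over all 4765 genes. The adjusted p in edgeR's quasi-likelihood test were 0.0185 for LUC7L3, 0.0303 for DDX5, 0.0305 for DHX15 and 0.048 for CIRBP. The higher genes were chosen by p from the same counts, so calls of them are no separate evidence.

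HMGCS1, which makes the HMG-CoA used for cholesterol and is a target of SREBP, had 166 and 118 CPM in log phase and 231 and 507 in serum starvation, a log2 difference of 1.28 (SE 0.443). KIF5B, a kinesin heavy chain, had 148 and 132 against 285 and 364. PMAIP1, the BH3-only apoptosis gene NOXA, had 206 and 113 against 481 and 241 on a called ORF of 78 nt, and serum B lay little above log phase A. CDCA7, a chromatin regulator of the cell cycle, had 145 and 165 against 222 and 438. EIF3CL, at 192 and 219.6 against 320.3 and 554, is a near-identical copy of the initiation factor gene EIF3C, and its footprints cannot be assigned to 1 of the copies. Of these 5, HMGCS1 (adjusted p = 0.00894) and KIF5B (adjusted p = 0.0367) were called with a letter term in each fraction.

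**Figure D2:**
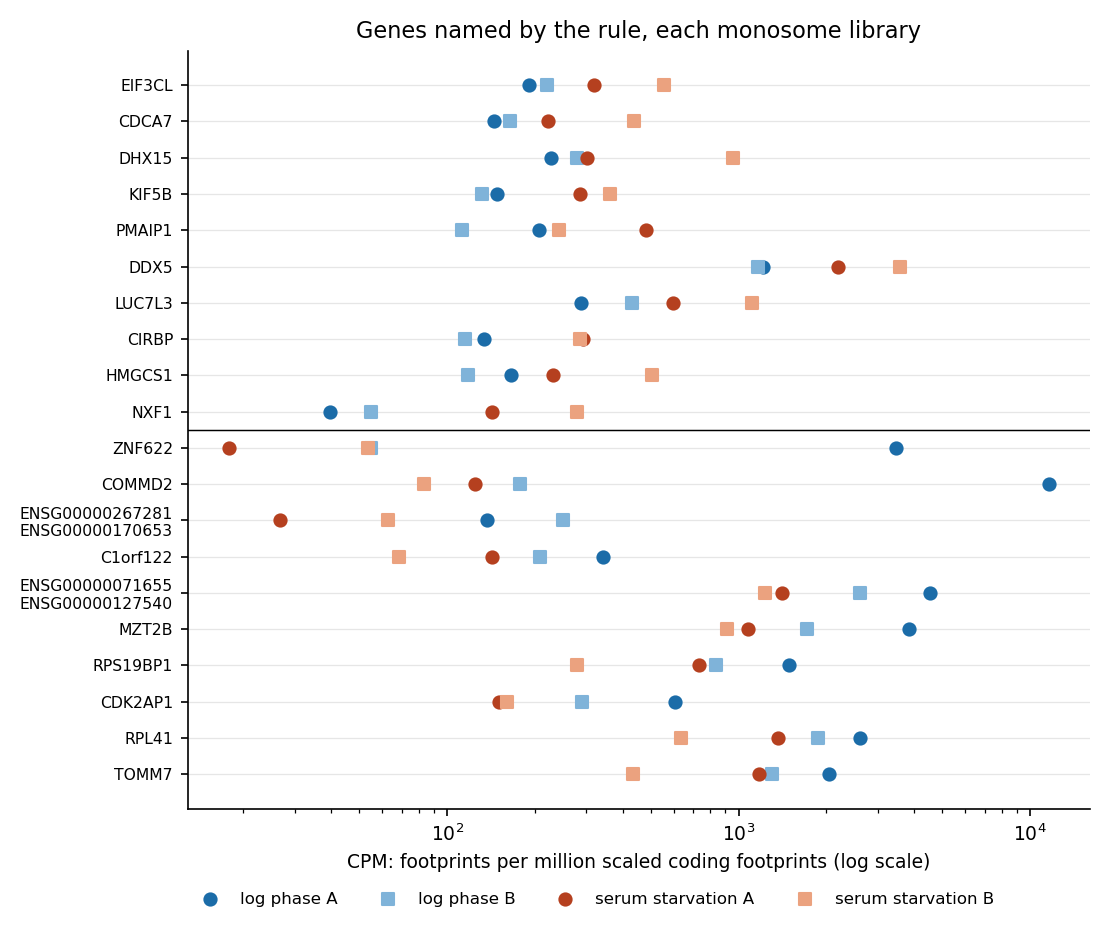
Footprint levels in CPM (log axis) in each of the 4 monosome libraries for the 10 higher (top) and 10 lower (bottom) genes; blue is log phase, red is serum starvation, circles are A and squares are B. The groups do not overlap in any of the 20, as the choice requires, but in ZNF622 and COMMD2 the gap between serum starvation and log phase B is small beside log phase A.

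The lower genes, COMMD2 and ZNF622 aside, were mostly read from short ORFs. RPL41, a ribosomal protein read here from an ORF of 69 nt, had 2609 and 1869 CPM in log phase and 1370 and 635 in serum starvation, a log2 difference of -1.25 (SE 0.423). TOMM7 had 2045 and 1298 against 1175 and 435, a log2 difference of -1.21 (SE 0.404). MZT2B, a small protein of the gamma-tubulin ring, had 3852 and 1718 against 1077 and 912, a log2 difference of -1.38 (SE 0.462). Log phase A was the highest library in all 3, and serum B the lowest.

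RPS19BP1, a nucleolar protein that binds RPS19, had 1496 and 834 CPM in log phase and 729.7 and 280.2 in serum starvation. CDK2AP1, an inhibitor of CDK2, had 607 and 291 against 151 and 161 on a called ORF of 96 nt. C1orf122 had 343 and 209 against 142 and 68.5 on an ORF of 33 nt. A further pair of ORF groups keeps the file's joint identifiers, because position gave them no RefSeq symbol of their own. ENSG00000071655_ENSG00000127540 had 4524 and 2621 against 1415 and 1228, and ENSG00000267281_ENSG00000170653 had 137 and 249.8 against 26.7 and 62.6. CDK2AP1, GUCY1A2 and EIF3CL have joint identifiers too, but were named by their position. The 10 lower genes were chosen by p from the same counts, so calls of them are no separate evidence. All 10 were called with a letter term in each fraction, beside 30 lower calls (0.63%) over all 4765 genes. That alternative also called, among genes outside the 10, the ribosomal protein RPS28 (1388 and 1117 against 694 and 426), the lysosome-related BLOC1S2 (1478 and 911 against 721 and 393), the mitochondrial iron-sulfur cluster proteins GLRX5 (1977 and 1298 against 1050 and 539) and ISCU (849 and 412 against 311 and 232), and DPH3 (729.9 and 456 against 356 and 188), which serves diphthamide synthesis. These 5 were chosen after their values were seen.

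Most called ORFs of the lower genes were short, so the difference was set against the length of the called ORF. The median log2 difference was -0.15 for 908 genes under 300 nt, -0.07 for 1286 genes from 300 to below 600 nt, 0.02 for 1614 genes from 600 to below 1200 nt, 0.12 for 710 genes from 1200 to below 2400 nt and 0.26 for 247 genes of 2400 nt and over. The polysome medians were -0.10, -0.09, 0.02, 0.16 and 0.10 in the same order of classes. At an unadjusted p under 0.05, 15 genes were higher and 50 lower under 300 nt, and 24 higher and 5 lower from 1200 to below 2400 nt. The longest class had 17 higher and 12 lower. Over all 4765 genes 113 were higher (2.37%) and 160 lower (3.36%). With a letter term in each fraction the calls were 0 higher and 11 lower under 300 nt and 7 higher and 0 lower from 1200 to below 2400 nt. From 2400 nt on they were 2 higher and 4 lower, so the longest class did not continue the pattern of the calls. Over all 4765 genes these calls were 13 higher (0.273%) and 30 lower (0.63%).

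The trend with length stood in the B pair and not in the A pair. The Spearman rho of length with the ratio was 0.269 for B, -0.025 for A and 0.158 for the fitted difference. In the longest class the B median was 0.41 and the A median -0.45, where 149 of the 247 genes had no footprint in serum A and the ratio rests on the 10 CPM that were added. ORFs of 2400 nt and over held 1.44% and 1.93% of the footprints of tested genes in log phase and 1.05% and 4.03% in serum A and B, so serum B alone was high. Counting error is small beside these gaps, since the 95% Wilson intervals of the shares given here extend at most 0.179 points to either side. They cover counting error only, because PCR copies are not independent molecules. The part of ORF length in the higher and lower calls was not tested.

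**Figure D3:**
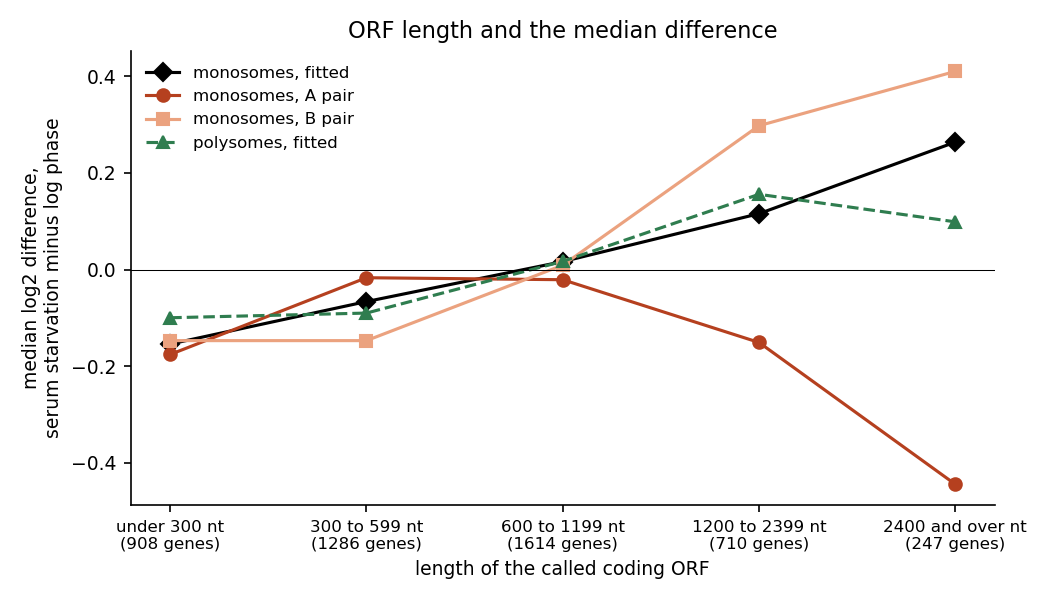
Median log2 difference between serum starvation and log phase (y axis) in 5 classes of called ORF length (x axis, number of genes below) for the fitted monosome value, the A pair, the B pair and the fitted polysome value. In the longest class the B pair is at 0.41 and the A pair at -0.45.

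The mRNAs of the translation machinery, the classic 5′TOP group, showed no common fall. Among 69 tested cytosolic ribosomal proteins the median log2 difference was 0.07, beside -0.01 for all tested genes; 41 were above 0 and 28 below, 0 passed the threshold, and at an unadjusted p under 0.05 there were 1 higher and 3 lower, beside 2.37% and 3.36% of all genes. The median was -0.32 without serum B, beside -0.26 for all tested genes, and 0.34 without log phase B, beside 0.01. The summed level was 10.8% and 14.4% of the footprints of tested genes in log phase and 11.2% and 13.3% in serum starvation, so the groups overlapped. RPS6, the S6 kinase substrate, had 1380 and 1389 CPM in log phase and 1566 and 1675 in serum starvation, and RPL3 had 1012 and 790.4 against 516 and 826. The 3 lower members were short. RPS21 had 11296 and 13670 against 6024 and 5132 on an ORF of 252 nt, and the others are RPL41 and RPS28, while RPL14, at 423 and 609 against 934 and 882, is the higher one. The 16 members read from ORFs under 300 nt had a median of -0.21 and the other 53 one of 0.11.

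The polysome medians were lower: -0.40 over the 69 ribosomal proteins, beside 0.00 for all genes, with 0 of 4765 genes (0%) past the threshold in serum against log phase polysomes. That contrast had 47 genes at an unadjusted p under 0.05 in edgeR's quasi-likelihood test, and DESeq2 called 0. In monosomes of amino acid-starved cells, set against the same log phase libraries, the ribosomal proteins had a median of -0.57 and 49 genes (1.03%) passed; RPL41 stood at -2.67 there and RPS28 at -2.50.

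The other 22 tested 5′TOP mRNAs, among them elongation and initiation factors, poly(A)-binding proteins, TPT1 and the intermediate filament gene VIM, had a median log2 difference of 0.46, with 18 above 0 and 0 past the threshold. The A pair gave 0.15 and the B pair 0.63, and the summed level was 1.10% and 1.74% in log phase and 1.26% and 3.19% in serum starvation, so serum B alone was high. PABPC1, the main cytoplasmic poly(A)-binding protein, had 383 and 1046 CPM in log phase and 525 and 2936 in serum starvation, with overlapping groups. PABPC4 had 177 and 249.8 against 276 and 575, and EIF3F, a subunit of eIF3, had 43.4 and 76.8 against 80.1 and 161; these 3 had unadjusted p of 0.0204, 0.0212 and 0.0339 and adjusted p from 0.752 to 0.836. EEF2, the translocase of elongation, had 1113 and 3225 against 979 and 9406. EEF1A1 had 2146 and 3099 against 1530 and 3892, and TPT1 had 491 and 1048 against 712 and 742. The order of libraries in EEF2 and PABPC1 followed the letters, with B high in both groups.

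**Figure D4:**
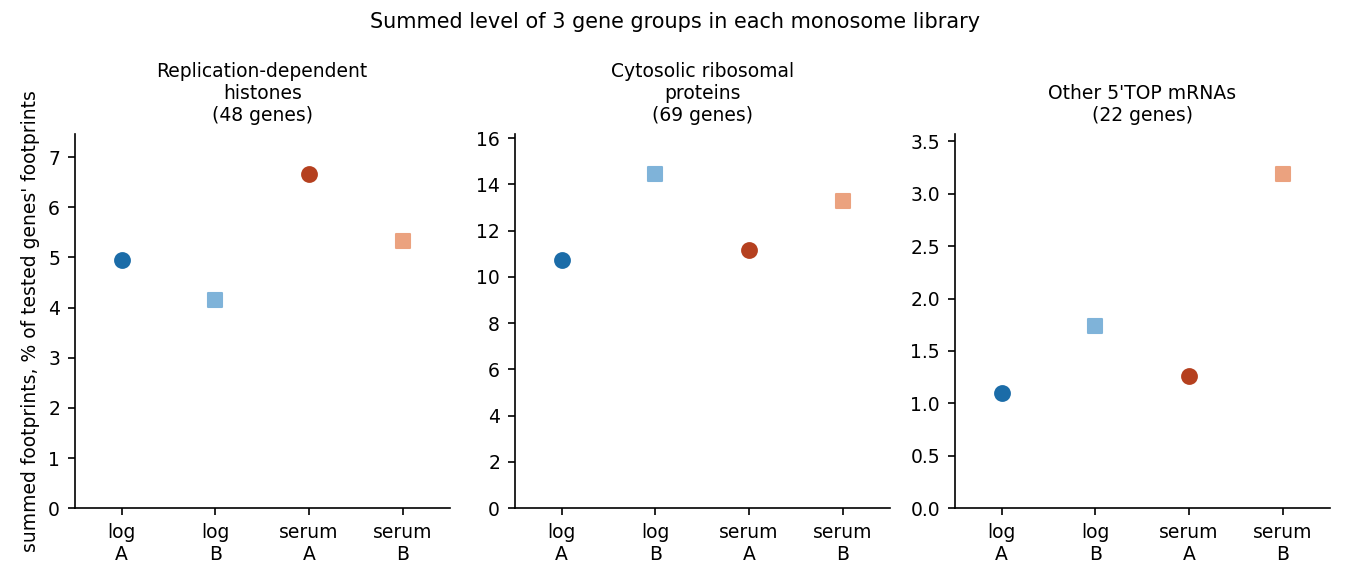
Summed footprints of 3 gene groups as a percentage of the footprints of all tested genes (y axes from 0) in each monosome library. The 48 histone genes sit at 4.95% and 4.14% in log phase and 6.66% and 5.33% in serum starvation; the ribosomal proteins overlap between groups, and the other 5′TOP mRNAs are high in serum B alone.

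The annotated start sites were compared in the same way. Of 3698 tested genes matched by symbol to a RefSeq start, 257 opened with a C or T run of at least 5 bases beginning with C, as did 4.04% of all 27305 starts in the table, read on the transcribed strand only. The median log2 difference in monosomes was 0.03 with the run and 0.00 without it. In polysomes the medians were -0.08 and 0.01, and in monosomes of amino acid-starved cells, which share the log phase libraries, -0.25 and 0.00. Outside the lists of ribosomal proteins and other 5′TOP mRNAs they were -0.03 and 0.01 in polysomes and -0.14 and 0.00 in amino acid-starved monosomes. Ribosomal proteins with and without the run had -0.44 and -0.33 in polysomes and -0.67 and -0.50 in amino acid-starved monosomes. The run was present in 35 of 56 matched ribosomal proteins and in 13 of 16 matched other 5′TOP mRNAs.

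Replication-dependent histone genes, whose mRNAs lack a poly(A) tail and are made in S phase, had the highest median among the lists with at least 5 tested members. Over 48 tested genes it was 0.54, with 39 above 0; 34 were higher in both letter pairs and 0 lower in both, beside 22.8% and 29% of all genes. None passed the threshold, 2 were higher at an unadjusted p under 0.05, beside 2.37% of all genes, and the letter term in each fraction called 0. The A pair gave 0.45 and the B pair 0.48, and the median was 0.69 without serum A and 0.17 without serum B, a setting in which the median of all genes moved to -0.26. The summed level was 4.95% and 4.14% in log phase and 6.66% and 5.33% in serum starvation, without overlap. The polysome median was -0.05. In amino acid-starved monosomes, against the same log phase libraries, it was 1.80.

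By family, the medians were 0.88 for 7 H3 genes, 0.61 for 15 H2B genes, 0.52 for 12 H2A genes, 0.43 for 3 H1 genes and 0.16 for 11 H4 genes. H3C2 had 1341 and 648 CPM in log phase and 3577 and 1523 in serum starvation, a log2 difference of 1.33 (SE 0.541, adjusted p = 0.752). H2AC6 had 166 and 68.6 against 472 and 128, with overlapping groups because A was high in both conditions. These genes are near-identical copies, and the caller splits a footprint over all ORFs that match it, so values of single members are uncertain and members are not independent.

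Genes that serum is known to induce did not fall together after 2 h. The 13 tested immediate early and serum-induced regulators had a median of 0.41, with 9 above 0 and 0 past the threshold; it was 0.040 without log phase B and 0.81 without log phase A. FOS, EGR1 and IER2 were not among the tested genes. JUN, a subunit of AP-1, had 101 and 156 CPM in log phase and 178 and 277 in serum starvation, a log2 difference of 0.80 (SE 0.429, adjusted p = 0.879). MYC had 1301 and 1732 against 2447 and 2596, a log2 difference of 0.76 (SE 0.457, adjusted p = 0.964). In both genes the serum libraries lay above the log phase libraries, and the polysome values were 0.81 for JUN and 1.04 for MYC. CCND1, the G1 cyclin, had 25.3 and 57.6 CPM against 0 and 35.8, at 0 and 12 footprints in serum starvation.

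The 15 tested SRF and YAP targets had a median of 0.13. TPM1, a tropomyosin, had 126 and 272 CPM in log phase and 53.4 and 86.4 in serum starvation, a log2 difference of -1.43 (SE 0.508, adjusted p = 0.752), and 6 footprints in serum A. It was called with a letter term in each fraction (adjusted p = 0.0266). FHL2, a LIM-domain partner of SRF, had 61.4 and 63.1 against 35.6 and 20.9, at 4 and 7 footprints in serum starvation. The 6 ID proteins and BMP targets, which depend on ligands in serum, had a median of -0.08. ID2 had 347 and 346 against 498 and 283 and ID3 had 79.5 and 38.4 against 80.1 and 29.8, while ID1 had 3 and 3 against 0 and 2 footprints, too few for a size. The polysome value of ID3 was -1.21 on the log2 scale.

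Sterol genes did not move as a group. The 19 tested SREBP targets and cholesterol synthesis genes had a median of -0.18, with 8 above 0 and 11 below, beside -0.47 without serum A, -0.54 without log phase B, 0.061 without serum B and 0.35 after thinning to the shallowest library. Over all tested genes the median was 0.035 without serum A, 0.0093 without log phase B and -0.26 without serum B. HMGCS1 lay high, as given above. EBP, a sterol isomerase, had 155 and 274 CPM in log phase and 35.6 and 146 in serum starvation (4 footprints in serum A), FDPS, which makes farnesyl diphosphate, had 184 and 214 against 125 and 113, and INSIG1, the sterol-responsive anchor of the SREBP complex, had 130.1 and 74.1 against 71.2 and 56.6.

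Of the nutrient signalling lists, the 11 mTORC1 components had a median of -0.33 with 9 below 0. LAMTOR2, of the Ragulator complex, had 347 and 244 CPM against 196 and 113 (unadjusted p = 0.0462, adjusted p = 0.864). RHEB, the GTPase that activates mTORC1, had 553 and 376 against 383 and 218. The 10 FOXO and PI3K-restrained genes had a median of -0.14 and the 14 integrated stress response genes -0.16. ATF4, which that response induces, had 361 and 357 against 525 and 396. None of the members of these 3 lists passed, and DDIT3, TXNIP, CCN1, CCN2 and SLC2A1 were not tested.

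**Figure D5:**
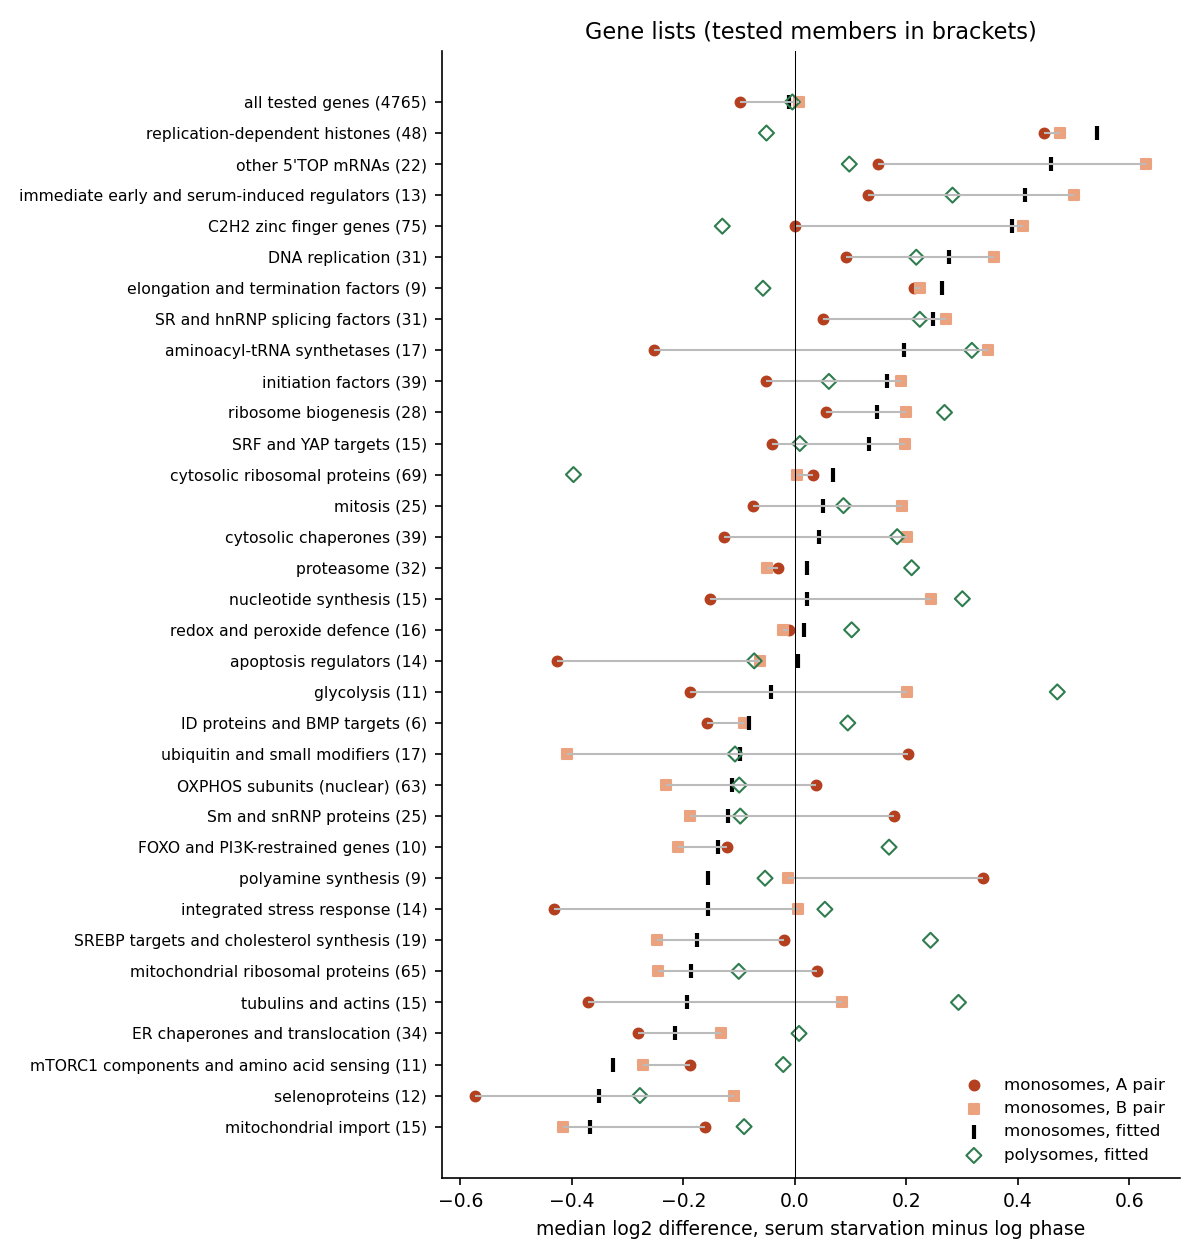
Median log2 difference between serum starvation and log phase over the tested members of each list (number in brackets) in monosomes, for the fitted value, the A pair and the B pair, and in polysomes, with all tested genes at the top. Histones lie at 0.54 and mitochondrial import genes at -0.37; in several lists the A and B pairs lie on opposite sides of 0.

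Lists of mitochondrial genes encoded in the nucleus had medians below that of all genes, but 2 of the 3 turned sign without log phase B. The mitochondrial ribosomal proteins then had a median of 0.062 and the oxidative phosphorylation subunits 0.17. The median of the oxidative phosphorylation subunits was also above 0 without serum A (0.034, beside 0.035 for all tested genes) and with CDS-type ORFs only (0.0099). The 15 mitochondrial import genes had the lowest median, -0.37, with 13 below 0 and 10 lower in both letter pairs. It was -0.60 without log phase A, -0.14 without log phase B and 0.11 with CDS-type ORFs only. TOMM7 was the only one called with a letter term in each fraction. TOMM40, the channel of the outer membrane translocase, had 101 and 96.1 CPM against 17.8 and 56.6, and TIMM44, which tethers the import motor, had 275 and 60.4 against 17.8 and 59.6; both rest on 2 footprints in serum A. The 65 mitochondrial ribosomal proteins had a median of -0.19 with 40 below 0, and the 63 oxidative phosphorylation subunits -0.11 with 38 below 0. In both of these lists the A pair gave 0.04 and the B pair -0.25 and -0.23. None passed.

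The 12 selenoproteins, whose mRNAs recode UGA as selenocysteine, had a median of -0.35, which was -0.095 without serum A and -0.72 without serum B. In these settings the median of all tested genes was 0.035 and -0.26. GPX4, the lipid peroxide reductase, had 4907 and 2294 CPM in log phase and 1646 and 1296 in serum starvation, a log2 difference of -1.22 (SE 0.440, adjusted p = 0.752, and 0.0367 with a letter term in each fraction). Its polysome value was -0.89 and its value in amino acid-starved monosomes, against the same log phase libraries, -1.85. SELENOF had 495 and 365 against 303 and 227. The 75 zinc finger genes of the C2H2 type had a median of 0.39, but 0.00 in the A pair. Without serum B their median was -0.59, beside -0.26 for all tested genes.

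The medians of the remaining lists ran from -0.21 to 0.28, beside -0.01 for all genes. They were 0.28 for 31 DNA replication genes, 0.26 for 9 elongation and termination factors, 0.25 for 31 SR and hnRNP splicing factors, 0.20 for 17 aminoacyl-tRNA synthetases, 0.16 for 39 initiation factors and 0.15 for 28 ribosome biogenesis genes. The medians were 0.05 for 25 mitosis genes, 0.04 for 39 cytosolic chaperones, 0.02 each for 32 proteasome, 16 redox and 15 nucleotide synthesis genes, and 0.01 for 14 apoptosis regulators. Below 0 they were -0.04 for 11 glycolysis genes, -0.10 for 17 ubiquitin genes, -0.12 for 25 Sm and snRNP proteins, -0.16 for 9 polyamine genes, -0.19 for 15 tubulins and actins and -0.21 for 34 ER chaperones and translocation factors. Over the 838 tested genes on any list 0 passed and DESeq2 called 0. An unadjusted p under 0.05 was found for 45 of them (5.37%), beside 5.73% of all genes, and the letter term in each fraction called 7 (0.835%), beside 0.902% of all genes, so both shares were near the background. Of the 33 lists with at least 5 tested members, 9 had a median that kept its sign when each library was left out in turn. The sign was taken against 0, while the median of all tested genes ran from -0.26 to 0.035 over these settings. ACTB, a common reference gene, had 611 and 607 CPM against 614 and 593; MCL1 had 105 and 170.2 against 80.1 and 179, and ODC1, the first enzyme of polyamine synthesis, 542 and 469 against 303 and 367.

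Whether serum starvation acted differently on the monosome and the polysome fraction was tested directly. The difference passed for 1 of 4765 genes (0.021%) in edgeR's quasi-likelihood test, EML6, with 116 genes at an unadjusted p under 0.05; a letter term in each fraction called 13, and 12 of those are among its 43 monosome calls. EML6, a microtubule-associated protein at chr2:54813299-54970095, had 14 and 51 footprints in log phase monosomes and 0 and 6 in serum starvation monosomes, a log2 difference of -3.38 (SE 0.758, adjusted p = 0.128). In polysomes it had 0.745 and 9.46 CPM in log phase and 2.91 and 30.3 in serum starvation, a log2 difference of 1.70. These rest on 3 and 21 footprints in log phase and 9 and 118 in serum starvation. For NXF1 the fraction difference was 1.59 (SE 0.632, adjusted p = 0.999), so its monosome value is not shown to differ from its polysome value of 0.53.

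The share of footprints was also compared by ORF type. ORFs downstream of a coding frame (type dORF) held 1.71% and 4.57% of footprints in log phase and 5.65% and 6.37% in serum starvation. ORFs of the type the table names orphan held 2.32% and 4.28% against 5.79% and 5.38%. In both types both serum libraries lay above both log phase libraries, also once ORFs with over 5% of a library were left out (3.39% and 4.61% against 5.65% and 6.42%, and 4.60% and 4.31% against 5.79% and 5.42%). Coding ORFs held 24.0% and 44.4% of footprints in log phase and 33.8% and 36.1% in serum starvation, and 47.7% and 44.8% against 33.8% and 36.4% once those ORFs were left out, where the serum libraries lay below both log phase libraries. Upstream ORFs that overlap the coding frame held 1.82% and 4.37% against 8.07% and 4.14%, with serum A high, and other upstream ORFs 2.14% and 5.66% against 3.18% and 4.35%. ORFs of the mitochondrial genome held 4.56% and 7.07% against 11.6% and 7.04%, again highest in serum A. With 2 libraries a group no exact test of these shares can pass.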

How the data were processed

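The authors deposited 1 table of 149028 ORFs with expected counts of footprints per library, the output of the caller PRICE, which the file names; the submitters' processing notes list Bowtie 1.0 and hg38 without a role. Per the labels, reads were 75 nt after 14 PCR cycles. The caller's p-value and its start scores, also deposited by the authors, were not used.

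Overlapping ORFs were resolved so that no codon entered more than 1 sum, coding types first; 7031 coding ORFs in 6375 genes remained. Genes were named by position in RefSeq (GRCh38.p14): 5892 matched 1 gene, and 483 keep their identifiers. Sums were rounded, filtered with filterByExpr (minimum count 10, minimum total 15), TMM-scaled and tested with the quasi-likelihood models of edgeR 4.0.16 in R 4.3.3, with 6 groups of 2 libraries and the column letter as block. Tests were two-sided with Benjamini-Hochberg adjustment over 4765 genes. The common biological coefficient of variation was 0.272. B minus A deviations correlated with r of 0.161 to 0.866 between groups, and 0.314 between the compared groups. No label ties letters to replicate numbers. The letters were set as block in the plan of the comparison, and the correlations only describe how far they pair. Depth per library is in the report.

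Named genes were up to 10 per direction with non-overlapping groups and at least 50 footprints on average in the higher group, past the threshold or else by smallest p; the 4 lowest-p members per list; and 30 preset genes, of which 21 were tested. Not all are printed. A group with 3 footprints or fewer gets no size. The comparison, members and gene lists were chosen with earlier results of these data known. The scripts were tested on simulated data. Alternatives were no block, a letter term in each fraction, fewer libraries, RLE or plain scaling, DESeq2 1.42.0, other filters, CDS-type ORFs only, thinning and leaving out each library.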

Additional observations from a re-analysis of the deposited data

Results flagged for a closer look

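EML6 was the only tested gene for which the effect of serum starvation differed between fractions in edgeR's quasi-likelihood test: the monosome value minus the polysome value was -5.08 on the log2 scale (SE 0.925, adjusted p = 0.028). The monosome libraries held 14 and 51 footprints in log phase and 0 and 6 in serum starvation. The polysome libraries held 3 and 21 in log phase and 9 and 118 in serum starvation. The call was lost without either serum monosome library, without log phase monosome A or without log phase polysome A.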

How the results depend on the processing

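The count of genes past the threshold in serum against log phase monosomes (1) was 0 without the replicate block and 43 with a letter term in each fraction; it was 4 with the 6 monosome libraries only, 13 with the 4 libraries compared, 0 with plain scaling, 0 by DESeq2 with or without the block, 11 with no filter on low counts, 0 with a filter of 50 counts in 2 libraries, 0 with CDS-type ORFs only and 0 after thinning to the shallowest library. Leaving out 1 library gave 0 to 10. In polysomes (0) the letter term in each fraction gave 3 and leaving out 1 library 0 to 3. The fraction difference (1) gave 0 without the replicate block, 13 with a letter term in each fraction and 0 to 7 without 1 library. List members past the threshold (0) numbered 7 with a letter term in each fraction, 3 with the 4 libraries compared, 1 with no filter and 0 to 1 without 1 library. Apart from tests made on fewer genes, fewer libraries or fewer footprints, the cause was not tested.

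Of 66 genes named with a size, 55 kept their direction in every setting that left more than 3 footprints in each group. Without serum B the fitted signs of CCDC120, GUCY1A2 and HERC6 turned too, with 0 footprints left in serum starvation. EEF1A1 (-0.02) turned to 0.051 without the replicate block, 0.011 with the 6 monosome libraries, 0.023 by DESeq2 with no block and 0.10 with CDS-type ORFs. TPT1 (-0.09) turned to 0.051 with the 6 monosome libraries and 0.024 with the 4 compared, MCL1 (-0.05) to 0.076 with the 6, and ACTB (-0.02) to 0.070 with the 6, 0.023 with the 4 and 0.077 with CDS-type ORFs. Leaving out 1 library moved the log2 difference from -0.70 to 0.28 for ID3, -0.27 to 1.62 for EEF2, -0.39 to 0.57 for ID2, -0.10 to 0.80 for ATF4, -0.53 to 0.37 for EEF1A1, -0.015 to 0.44 for RPS6, -0.94 to 0.036 for RPL3, -0.63 to 0.62 for TPT1, -0.53 to 0.18 for MCL1, -0.42 to 0.36 for ACTB and -0.50 to 3.10 for ENSG00000120137. The median tested gene had 6 footprints in serum A, where 1 footprint is worth 8.90 CPM, so levels under that value could not be told apart there.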
